A study of Drosophila melanogaster with 9 samples.

Results

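The nuclear genes of the mitochondrial oxidative phosphorylation complexes were followed in whole Drosophila melanogaster embryos with raised or reduced Jun N-terminal kinase (JNK) signalling. Members were the genes whose symbol starts with ND- (complex I), UQCR- (complex III), COX (complex IV) or ATPsyn (ATP synthase). The array table held a probe set of their own for 60 such genes among 10844 genes tested. They comprised 31 of the 40 complex I genes that carry such a symbol in the RefSeq gene table, 4 of 9 for complex III, 11 of 19 for complex IV and 14 of 15 for ATP synthase. The 19 include COX1, COX2 and COX3, the 3 genes that meet the naming rule but lie on the mitochondrial genome, so all 60 measured members are nuclear. Membership was set by names alone, while the probe set with the highest mean stood for a gene. The rule itself was chosen with earlier results of these data known. Another 3 genes that meet it shared their probe set with a second gene and were left out of the counts.

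Oxidative phosphorylation makes most of the ATP of aerobic cells. Complex I takes electrons from NADH, complex III passes them from ubiquinol to cytochrome c, and complex IV hands them to oxygen, each moving protons across the inner mitochondrial membrane, whose return through ATP synthase drives ATP formation. The complexes are built from nuclear and mitochondrial gene products in fixed proportions, and in the egg and early embryo much of their RNA is laid down by the mother.

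The study measured embryos at stages 13 to 14, during dorsal closure, with 3 arrays in each of 3 groups, each array from an independent RNA sample. WT embryos were w. GOF embryos were w with 1 copy each of UAS-hepACT and of the ectodermal driver 69B-GAL4, neither of which WT carried. UAS-hepACT encodes an activated form of the JNK kinase Hemipterous (Hep). LOF embryos carried 2 hep alleles, with the genotype y w heprev75/y w hep1, so that w was shared by all 9 samples and y was found in LOF alone. Eggs laid over 2 h were aged for about 9 h at 25 °C, and collections with fewer than 85% of embryos at these stages, by dpp staining, were discarded. RNA came from many whole embryos, so the driven ectoderm is diluted by other tissues, and fewer cells of a type cannot be told apart from less RNA per cell.

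Values are the deposited linear RMA intensities. Changes are differences between group means of log2(value + 1), with the standard error (SE) and the Benjamini-Hochberg adjusted p of limma over all 10844 genes, and a gene with an adjusted p under 0.05 is called changed. The base with which the values were returned to a linear scale is not stated in the sources used here. If it was e, each log2 change given here must be multiplied by 0.693, so the leading folds are given for both cases. Probe sets differ in how well they bind, so the intensities of different genes were not ranked against each other.

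In all, 13 of the 60 members had a mean intensity below 688, the lowest of the 9 array medians. Of these, 11 were among the 14 members whose symbol ends in L, L1 or L2 and marks a paralog of a subunit gene, and the other two were ND-B8 (means of 90.3, 94.0 and 96.3 in WT, GOF and LOF) and COX7C (134, 137 and 136). No detection calls were used, so these dim sets may not report a level. The 46 members other than paralogs are described first.

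Arrays of one group differed for these 46 genes together. In LOF, replicate 3 read highest for 39 of 46 and replicate 2 lowest for 40 of 46, with median deviations from the LOF mean of 0.28 and -0.22 on the log2 scale, against -0.009 and -0.002 over all genes tested. In WT, replicate 1 was the highest for 31 genes (median deviation 0.16) and replicate 2 the lowest for 33 (-0.17). GOF arrays lay closer together, between -0.05 and 0.08. The same arrays were high and low for the 37 cytosolic ribosomal protein genes measured (0.12 on LOF replicate 3, -0.14 on LOF replicate 2 and -0.14 on WT replicate 2) and for the 64 mitochondrial ones (0.12, -0.15 and -0.09), to a smaller extent. Accordingly, the median coefficient of variation of the 46 genes was 19.5% in LOF, 12.8% in WT and 8.27% in GOF. The source of the shift was not tested, and counts and medians that moved without one of these arrays are given without it.

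**Figure D1:**
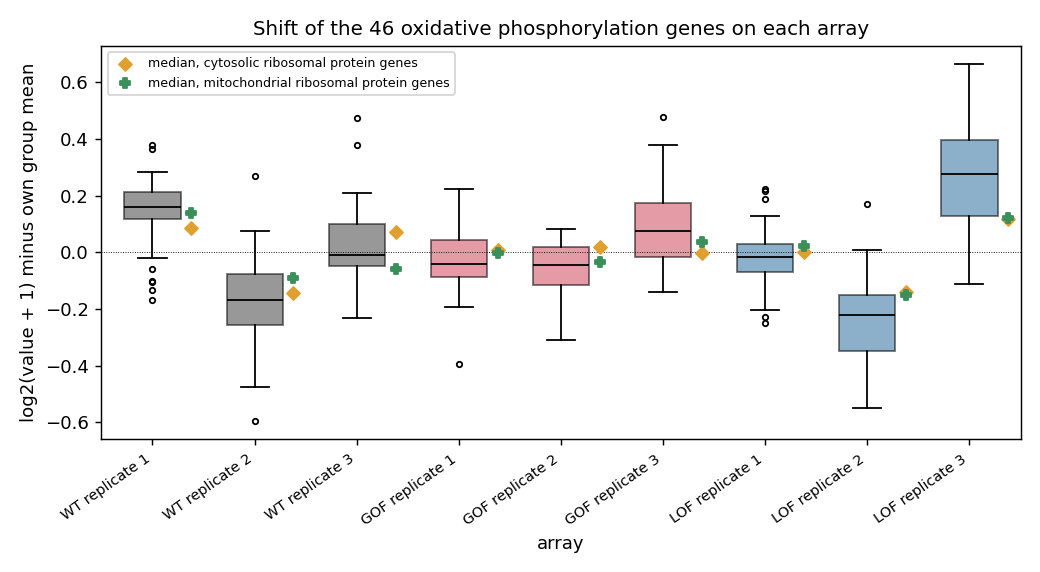
Deviation of the 46 members other than paralogs from their own group's mean, log2(value + 1), on each of the 9 arrays. Boxes span the quartiles with the median as a line, whiskers reach 1.5 box lengths and circles lie beyond; diamonds and crosses give the medians of the cytosolic and mitochondrial ribosomal protein genes. LOF replicate 3 has a median of 0.28 and LOF replicate 2 one of -0.22.

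The first comparison asked how these genes differed in embryos with activated Hep in the ectoderm. Of the 60 members, 10 were higher and 5 lower in GOF than in WT, and 45 did not pass the test. On all 15 the 3 GOF arrays lay outside the range of the WT arrays, though the share of all called genes so placed was not counted. The 16.7% of members called higher is close to the 16.6% of all genes called higher, and 8.33% were called lower, against 20.1% of all genes. The median log2 change was -0.02 over the members and -0.03 over all genes. The changed members split within complexes: ATP synthase had 3 higher and 3 lower of 14, complex I 6 higher and 1 lower of 31, complex IV 1 higher of 11 and complex III 1 lower of 4.

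The count of lower members was the less firm of the pair. Cyclic loess gave 11 higher and 3 lower, and a second quantile normalization 10 higher and 11 lower. The count of lower members was 3 without GOF replicate 2, 8 without WT replicate 2 and 8 without LOF replicate 3. Over all genes it was 1820, 2154 and 2131 in the same order. The higher count stayed between 8 and 11 over the 19 alternatives tried.

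**Figure D2:**
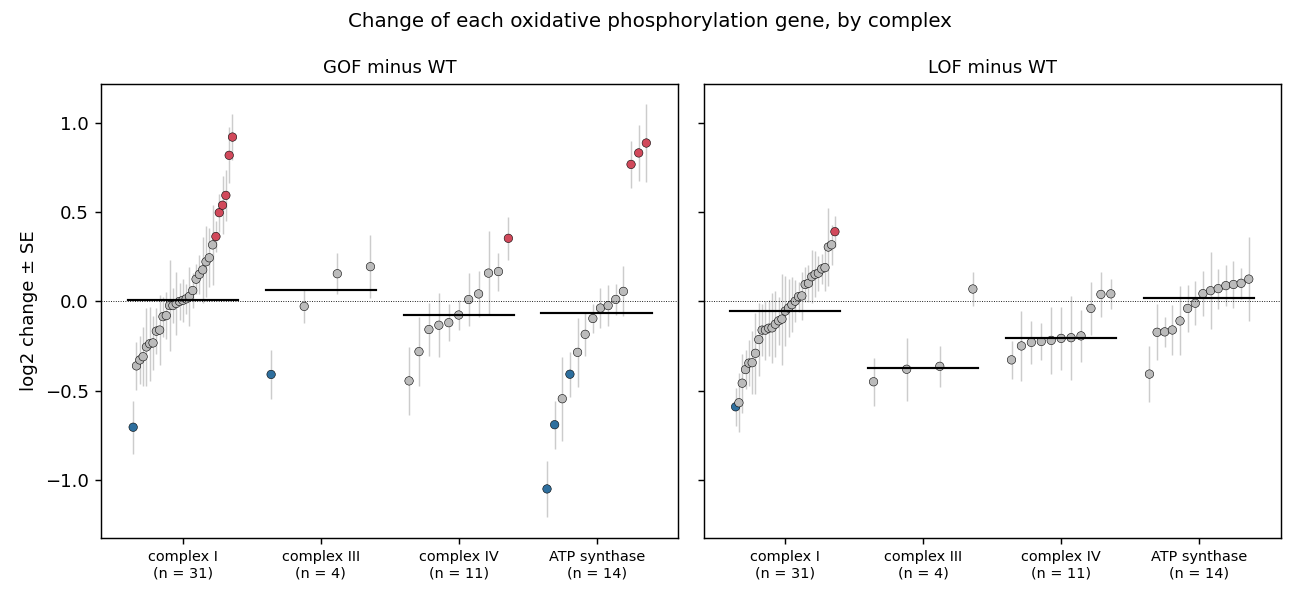
Log2 change of each of the 60 members, GOF minus WT (left) and LOF minus WT (right), with SE bars, sorted within each complex, n = 3 arrays a group. Red and blue points are called higher and lower in limma, grey points are not, and black lines are medians. In GOF, ATP synthase genes spread from -1.05 to 0.89, while in LOF 2 genes are called.

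ATP synthase held the deepest fall of all members in GOF. ATPsynbeta, the catalytic subunit of the head, read 3646, 3181 and 3863 on the WT arrays, 1671, 1384 and 2180 on the GOF arrays, and 2326, 3014 and 2742 on the LOF arrays. Every GOF array lay below every WT and LOF array, and the LOF arrays below those of WT. The log2 change in GOF was -1.05 (SE 0.16, adjusted p = 0.000262), so the level was 2.07-fold lower (base e: 1.66-fold). In LOF it was -0.41 (adjusted p = 0.183).

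Rotor genes went opposite ways. ATPsyngamma, the shaft that turns inside the head, read 80597, 70325 and 59161 in WT, 41956, 44212 and 43015 in GOF and 64737, 59161 and 80716 in LOF. The GOF arrays formed a tight group below all others (log2 change -0.69, SE 0.13, adjusted p = 0.00154). ATPsyndelta, at the foot of the same shaft, read 19883, 16603 and 26902 in WT, 34094, 33059 and 49875 in GOF and 18428, 19170 and 28492 in LOF. It rose on every GOF array (log2 change 0.89, SE 0.22, adjusted p = 0.00665). ATPsynC, which forms the proton-carrying ring, had 2 probe sets, and neither passed the test in GOF. Its brighter set read 29235, 19206 and 29459 in WT and 13285, 16490 and 24321 in GOF (log2 change -0.54, adjusted p = 0.0956), and the dimmer one had a log2 change of -0.48 (adjusted p over probe sets 0.199).

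Genes of the peripheral stalk, which holds the head still, also divided. ATPsynO, the stalk's cap on the head, read 50596, 41788 and 51033 in WT, 77295, 79617 and 86511 in GOF and 48488, 43981 and 61642 in LOF. No GOF array overlapped with another group, and the log2 change was 0.77 (SE 0.13, adjusted p = 0.000619). As a ratio this is 1.70-fold (base e: 1.45-fold). ATPsynCF6 behaved alike, with 16071, 12012 and 15173 in WT, 23853, 26225 and 26414 in GOF and 10678, 11649 and 16441 in LOF (log2 change 0.83, SE 0.16, adjusted p = 0.00134). ATPsynB fell instead, from 27207, 24957 and 23732 in WT to 17016, 17614 and 23033 in GOF, with 26255, 23591 and 28494 in LOF. GOF replicate 3 came close to the lowest WT array, and the call (log2 change -0.41, SE 0.13, adjusted p = 0.0230) was lost with cyclic loess (0.0620) and without WT replicate 1 (0.0867), GOF replicate 1 (0.0880) or GOF replicate 2 (0.0889). ATPsynD had a log2 change of -0.29 (adjusted p = 0.305).

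Of the subunits in the membrane part, ATPsynE read 75181, 66096 and 65478 in WT, 69214, 72910 and 72489 in GOF and 61657, 49109 and 77072 in LOF. The groups overlapped (log2 change in GOF 0.06, adjusted p = 0.821). ATPsynF had a log2 change of -0.18 (adjusted p = 0.299). The alpha subunit gene blw, outside the naming rule, read 141740, 113864 and 163137 in WT, 78027, 88091 and 101036 in GOF and 179597, 215512 and 193893 in LOF. Like ATPsynbeta, its partner in the head, it fell in GOF (log2 change -0.64, SE 0.14, adjusted p = 0.00343), whereas the LOF arrays all lay above WT (0.50, adjusted p = 0.0661).

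**Figure D3:**
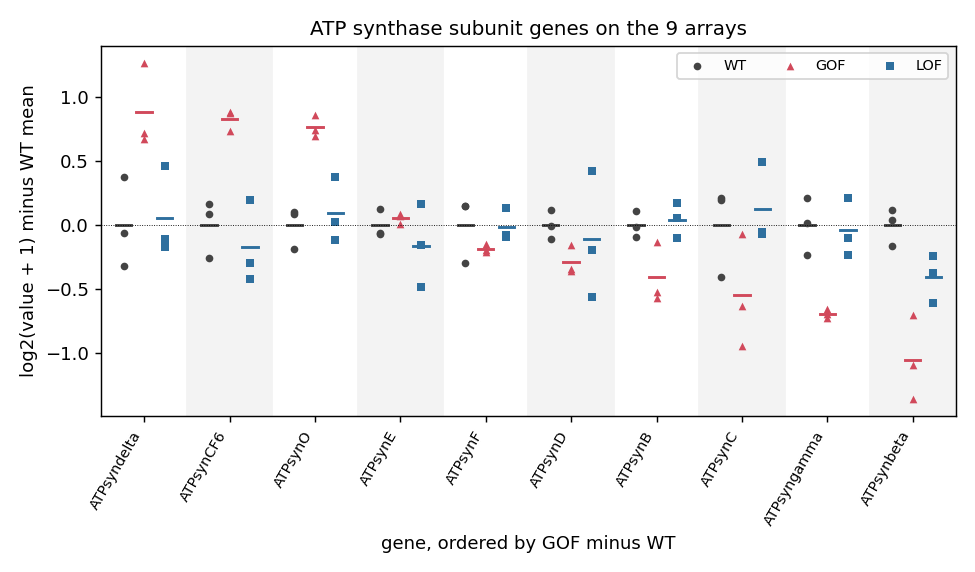
The 10 ATP synthase members other than paralogs on the 9 arrays, as log2(value + 1) minus the gene's WT mean, ordered by the change in GOF. Each point is 1 array and each bar a group mean (n = 3). The first 3 genes from the left lie above WT on every GOF array and ATPsynbeta on the right lies 1.05 below it on average.

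Complex I had 5 members other than paralogs that rose in GOF and 1 that fell. ND-42, an accessory subunit of the membrane arm, read 12523, 9311 and 10646 in WT, 17826, 19732 and 23951 in GOF and 11849, 11584 and 12401 in LOF. Its lowest GOF array was well above all WT and LOF arrays (log2 change 0.92, SE 0.13, adjusted p = 0.000161), so the level was 1.89-fold higher (base e: 1.56-fold). ND-MNLL, another accessory subunit of that arm, read 21904, 15866 and 18145 in WT, 33231, 30095 and 34587 in GOF and 17433, 13193 and 20081 in LOF (log2 change 0.82, SE 0.16, adjusted p = 0.00139). Its second probe set rose too, by 0.58 on the log2 scale (adjusted p over probe sets 0.0025).

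The core subunits, those conserved from bacteria that carry the electrons, did not move together. ND-20, which holds the iron-sulphur cluster next to ubiquinone, read 17810, 14978 and 16078 in WT, 23359, 24651 and 25622 in GOF and 14977, 11406 and 17973 in LOF. It rose in GOF (log2 change 0.59, SE 0.14, adjusted p = 0.00638). ND-51, which binds NADH at the other end of the electron path, fell from 11072, 8121 and 8363 in WT to 5278, 5007 and 6574 in GOF, with 9503, 9112 and 11582 in LOF. Here the GOF arrays were the lowest of the 9 (log2 change -0.70, SE 0.15, adjusted p = 0.00257). ND-75, the largest iron-sulphur subunit, read 14618, 11635 and 12812 in WT and 12409, 12523 and 11745 in GOF (log2 change -0.09, adjusted p = 0.632).

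Among the other accessory subunits, ND-13A read 17457, 15477 and 14489 in WT, 22744, 23545 and 20558 in GOF and 11437, 9380 and 10695 in LOF. The 3 groups did not overlap, with GOF highest and LOF lowest, and ND-13A alone of the 60 members was called in opposite directions in GOF (log2 change 0.50, SE 0.11, adjusted p = 0.0031) and LOF (-0.59, SE 0.11, adjusted p = 0.0115). ND-15 read 7192, 5447 and 7406 in WT, 8561, 9566 and 10871 in GOF and 6758, 5186 and 7678 in LOF (log2 change in GOF 0.54, SE 0.16, adjusted p = 0.0197). This call was lost without WT replicate 2 (0.0834), GOF replicate 2 (0.0505) or GOF replicate 3 (0.0641).

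The remaining 20 complex I members other than paralogs had log2 changes between -0.36 (ND-ACP, the mitochondrial acyl carrier protein, adjusted p = 0.0577) and 0.32 (ND-B14.7, adjusted p = 0.331) in GOF. ND-B16.6, chosen for its high intensity, read 43363, 35217 and 37932 in WT, 29626, 29283 and 33786 in GOF and 39926, 32963 and 46953 in LOF. All GOF arrays lay below WT without passing the test (log2 change -0.33, adjusted p = 0.0765).

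**Figure D4:**
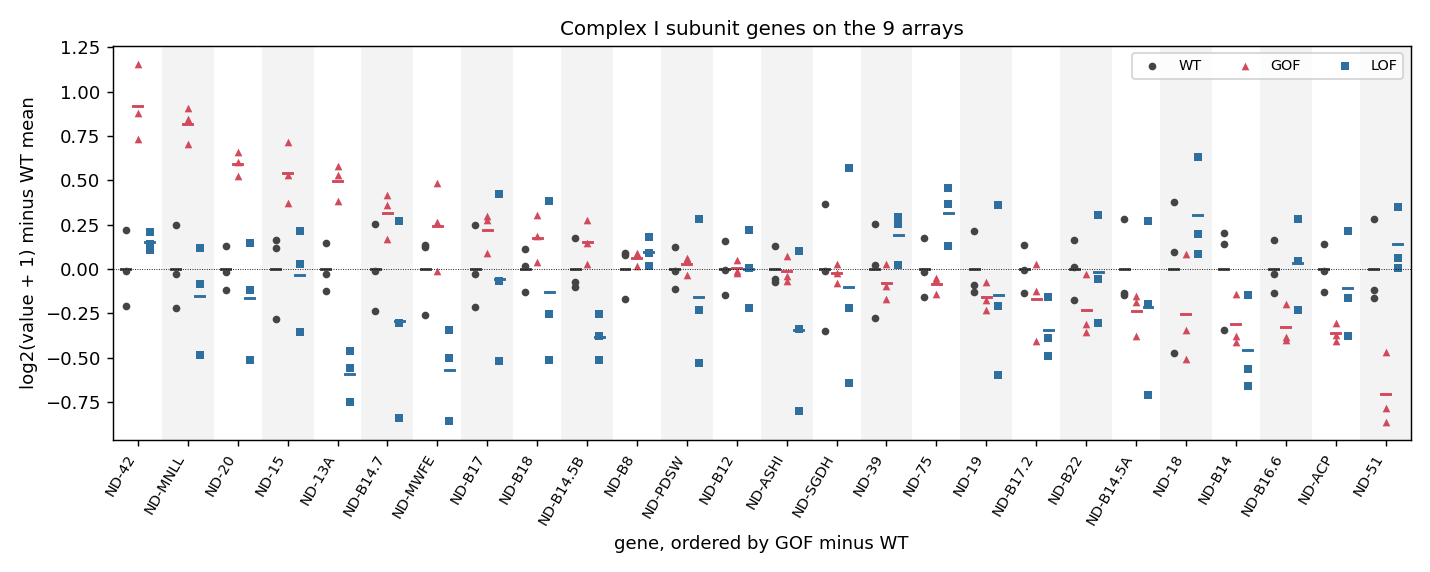
The 26 complex I members other than paralogs on the 9 arrays, as log2(value + 1) minus the gene's WT mean, ordered by the change in GOF, with group means as bars (n = 3). The means in GOF run from 0.92 for ND-42 to -0.70 for ND-51, and the LOF squares of ND-13A all lie below the WT points.

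Complexes III and IV had 1 called member each in GOF. UQCR-6.4, a small subunit of complex III, read 56623, 62298 and 63424 in WT, 50160, 37525 and 50793 in GOF and 51601, 39601 and 42955 in LOF. It was below WT on every array of both other groups and was called in GOF (log2 change -0.41, SE 0.13, adjusted p = 0.0323) but not in LOF (-0.45, adjusted p = 0.0853), a difference between GOF and LOF of 0.04 (adjusted p = 0.851). The GOF call was lost with cyclic loess (0.0888) and without WT replicate 2 (0.0822), WT replicate 3 (0.0957) or GOF replicate 2 (0.139). UQCR-Q, which lies in the same complex, read 68376, 45422 and 68726 in WT, 71510, 66661 and 67143 in GOF and 45833, 36993 and 57151 in LOF. WT overlapped with both other groups (log2 change in GOF 0.19, adjusted p = 0.461).

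COX5B, a nuclear subunit that surrounds the catalytic core of complex IV, was its sole member called in GOF. It read 68829, 53476 and 59680 in WT, 79425, 79532 and 72540 in GOF and 50733, 45320 and 59307 in LOF. GOF arrays were above the rest (log2 change 0.35, SE 0.12, adjusted p = 0.0386), but the call was lost in 6 of 19 alternatives, with an adjusted p of up to 0.140 (without WT replicate 2). COX4 read 124583, 97435 and 108811 in WT, 94367, 95687 and 110893 in GOF and 93839, 71560 and 127914 in LOF. Its 3 groups overlapped, and LOF held both the lowest and the highest of the 9 values (log2 changes -0.13 and -0.21, adjusted p = 0.641 and 0.560). COX7A had the lowest change in GOF within complex IV (-0.44, adjusted p = 0.0907).

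**Figure D5:**
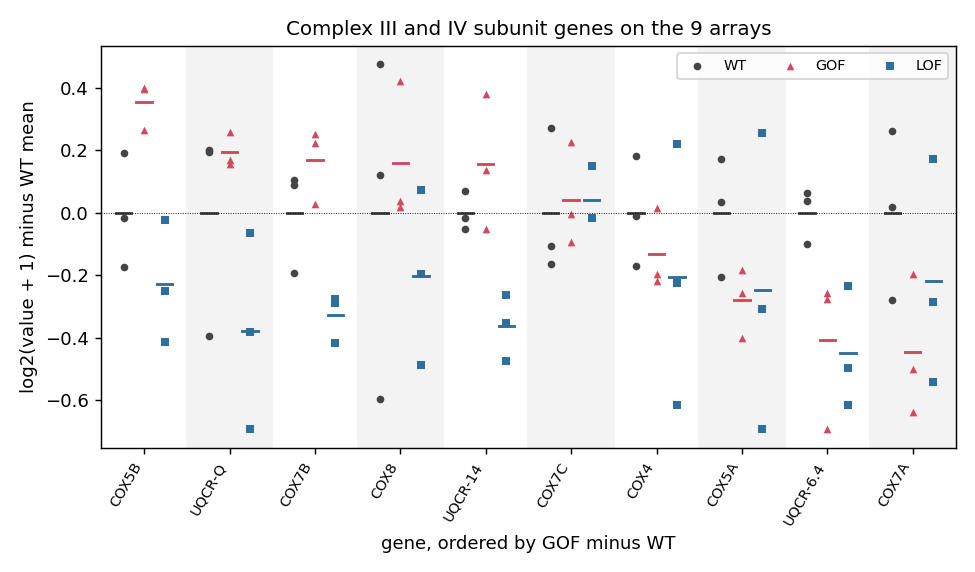
The 3 complex III and 7 complex IV members other than paralogs on the 9 arrays, as log2(value + 1) minus the gene's WT mean, ordered by the change in GOF, with group means as bars (n = 3). COX5B has the highest mean in GOF (0.35) and COX7A the lowest (-0.44), and the LOF squares of several COX genes spread above and below WT.

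Markers of developmental state and of other tissues moved with the GOF group, and some of them with LOF. Of 10 measured markers of the maternal and early embryo, 6 were higher and 1 lower in GOF, and their summed intensity was 24314 to 38426 on the GOF arrays against 9501 to 10335 in WT and 9687 to 12068 in LOF. The bright gene gcl, which fell in GOF, makes up most of that sum in WT and LOF. The anterior determinant bcd alone had a log2 change of 5.21 in GOF. In LOF 4 of the 10 were higher than in WT and 0 lower: dhd (log2 change 1.44, adjusted p = 0.0120), smg (1.19, adjusted p = 0.000985), swa (0.79, adjusted p = 0.0118) and twe (0.79, adjusted p = 0.0179). Summed markers were lower on the GOF arrays for the epidermis (13993 to 16295, against 26166 to 29317 in WT, with 4 of 5 called lower) and for neurons (10433 to 12539, against 21410 to 25397, 2 of 4). They were also lower for midgut and fat body (32386 to 50554, against 61084 to 72874, 4 of 6). Muscle markers, 4 of 7 of them called lower, summed to 18465, 21995 and 45683 in GOF, so that replicate 3 lay within the WT range of 42063 to 52406. Bright genes made up most of these sums in WT: neo (mean 21920) in the epidermis, elav and fne (9408 and 12730) in neurons, apolpp (51240) in midgut and fat body and Mlc2 (33130) in muscle. Over all genes, 16.6% were called higher and 20.1% lower in GOF, and 1.36% and 3.37% in LOF. In LOF 1 of the 7 muscle markers, sls, was higher than in WT (log2 change 0.75, adjusted p = 0.00248) and 0 were lower. The part of all these markers in the changes of the oxidative phosphorylation genes, in GOF or in LOF, was not tested.

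The second comparison asked what followed when hep function was reduced. In LOF 1 member was higher and 1 lower than in WT, each 1.67% of the members, against 1.36% and 3.37% of all genes. The same LOF arrays had the 4 raised markers of the maternal and early embryo given above. The member that fell was ND-13A, described above, whose call was lost without WT replicate 1 (adjusted p = 0.0569) and without LOF replicate 2 (0.0572). The member that rose was the paralog ND-20L, at 528, 496 and 508 in WT, 656, 709 and 610 in GOF and 643, 698 and 669 in LOF. Its GOF and LOF arrays overlapped with each other and lay above WT, by 0.36 on the log2 scale in GOF (adjusted p = 0.00618) and by 0.39 in LOF (adjusted p = 0.0284), each with an SE of 0.09. The LOF call was lost without any single WT or LOF array (adjusted p from 0.0630 to 0.118). A second quantile normalization gave 1 higher and 2 lower, as did leaving out GOF replicate 3.

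The medians of the complexes in LOF were -0.05 for complex I, -0.37 for complex III, -0.21 for complex IV and 0.02 for ATP synthase, against 0.02 for all genes. These medians moved with the array shift. Without LOF replicate 3, they were -0.27, -0.37, -0.33 and -0.11 in the same order, and without LOF replicate 2, 0.08, -0.30, -0.06 and 0.06. Without WT replicate 1, they were 0.01, -0.33, -0.13 and 0.05, and without WT replicate 2, -0.17, -0.38, -0.29 and -0.09. The median of complex I changed sign without LOF replicate 2 or WT replicate 1. That of ATP synthase changed sign without LOF replicate 3 or WT replicate 2. Further members below every WT array in LOF without a call were ND-B14.5B (log2 change -0.38, adjusted p = 0.0752), ND-MWFE (-0.57, adjusted p = 0.0761), UQCR-14 (-0.36, adjusted p = 0.0978), COX7B (-0.33, adjusted p = 0.112) and ND-B17.2 (-0.35, adjusted p = 0.170). ATPsynbeta, UQCR-6.4 and the paralog ATPsynepsilonL (-0.17, adjusted p = 0.277) were so placed as well. Above every WT array in LOF without a call lay the paralogs ND-24L (0.18, adjusted p = 0.2475) and ND-B14.5AL (0.16, adjusted p = 0.403). The share of all genes placed in these ways was not counted, so the positions are given as a description only.

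GOF and LOF were also compared directly. In GOF 14 members were higher than in LOF and 6 lower, which is 23.3% and 10% of the members against 17.7% and 19.4% of all genes. A second quantile normalization gave 14 and 10. Without LOF replicate 3 the counts were 20 and 3, and without LOF replicate 2 they were 12 and 7. Both comparisons with GOF use the same GOF arrays, so they are not independent, and 13 of the 20 called here were also called against WT.

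The other 7 passed in this comparison alone. ND-MWFE, an accessory subunit known in mammals to be needed to build complex I, read 25216, 20797 and 29334 in GOF and 16543, 11579 and 14840 in LOF, with 22842, 17547 and 23079 in WT. GOF lay above LOF throughout (log2 difference 0.81, SE 0.16, adjusted p = 0.00197). UQCR-14, a small subunit of complex III, read 18520, 13727 and 15659 in GOF, 11866, 11139 and 10241 in LOF and 14050, 14944 and 13727 in WT, which took the middle place (log2 difference 0.52, SE 0.11, adjusted p = 0.00336). Differences of ND-B14.5B (0.53), COX7B (0.49) and UQCR-Q (0.57) ran the same way, the last lost in 4 of 19 alternatives. ND-75 was lower in GOF (-0.40, adjusted p = 0.0134), which was lost without LOF replicate 3 (0.0595). ATPsynC was lower too (-0.67, adjusted p = 0.0419), a call lost in 7 alternatives and the one of the 20 whose arrays overlapped.

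The largest direct difference was that of ND-13A (log2 difference 1.09, SE 0.11, adjusted p = 1.01e-05), and ATPsynCF6 (1.005, SE 0.16, adjusted p = 0.000339) and ND-MNLL (0.97, SE 0.16, adjusted p = 0.000411) followed. The deepest was ND-51 (-0.84, SE 0.15, adjusted p = 0.000748).

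The paralogs are gene copies that in flies are mostly used in the male germ line. Of 14 measured, ND-20L was the only one called in either comparison against WT, and 0 were called between GOF and LOF in limma, with 0 also at an unadjusted p under 0.05. Over all genes, 16.6% were called higher and 20.1% lower in GOF, 1.36% and 3.37% in LOF, and 17.7% and 19.4% between GOF and LOF. Their log2 changes in GOF lay between -0.16 and 0.36. In 10 pairs both the subunit gene and its paralog were measured, and in 6 of them, counting ND-51 once for each of its paralogs, the subunit gene had been called against WT.

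ATPsynbeta fell in GOF, while ATPsynbetaL read 6267, 7119 and 5522 in WT, 6697, 6250 and 5451 in GOF and 6351, 6672 and 6751 in LOF (log2 change in GOF -0.04, adjusted p = 0.857). ATPsynCF6 rose, while ATPsynCF6L read 311, 307 and 286 in WT, 298, 318 and 295 in GOF and 301, 343 and 327 in LOF. COX5B rose, while COX5BL read 179, 176 and 164 in WT, 169, 163 and 160 in GOF and 191, 175 and 169 in LOF. In each of the 3 pairs the paralog's groups overlapped.

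ND-51 fell, while ND-51L1 read 511, 517 and 492 in WT, 523, 469 and 530 in GOF and 490, 621 and 528 in LOF. ND-51L2 read 264, 278 and 264 in WT, 277, 289 and 314 in GOF and 274, 278 and 269 in LOF. The groups of both overlapped between GOF and WT. ND-20 and ND-20L both rose in GOF, but in LOF ND-20 had a log2 change of -0.16 (adjusted p = 0.579) where ND-20L rose.

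In the other 4 pairs neither gene was called against WT. ND-B14.5A read 26209, 19653 and 19438 in WT, 19431, 18973 and 16592 in GOF and 18770, 13158 and 26007 in LOF. ND-B14.5AL read 2471, 2630 and 2457, then 2613, 2665 and 2186, then 2998, 2727 and 2717 in the same order. The LOF arrays of the paralog lay above WT without passing the test (log2 change 0.16, adjusted p = 0.403). UQCR-14L stayed between 128 and 154, COX4L between 73 and 104 and COX7AL between 91 and 141 on all 9 arrays, intensities close to the low end of the table. COX7A read 52753, 36274 and 44559 in WT, 31096, 28270 and 38455 in GOF and 36130, 30239 and 49579 in LOF. The 7 markers of the male germ line summed to 1289 to 1326 in GOF and 1232 to 1425 in WT, with 0 of 7 called in limma in the 3 comparisons (at an unadjusted p under 0.05, 0 in GOF and 0 in LOF against WT and 1 between GOF and LOF).

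Other genes of the pathway came from lists of known components, and their counts in GOF stand beside 16.6% of all genes called higher and 20.1% called lower. Those in LOF stand beside 1.36% and 3.37%. The alternatives were not tabulated for genes of these lists. With lists this short no count is read as particular to the pathway. Cyt-c1, the haem protein of complex III that reduces cytochrome c, read 38406, 27865 and 34355 in WT, 53826, 63287 and 64645 in GOF and 37889, 31280 and 38018 in LOF (log2 change 0.86, SE 0.13, adjusted p = 0.000313). With blw it was the only one called of 6 subunit genes of complexes III, IV and ATP synthase with other names. Of 5 complex II genes, SdhC, a membrane anchor, fell (-0.41, adjusted p = 0.00901). In a list of 11 assembly factors and related genes, 4 rose, led by the complex II factor Sdhaf3 (1.07, adjusted p = 1.87e-05). Another 6 fell, led by the protein import gene ttm50 (-0.68, adjusted p = 0.00047) and the complex I factor CIA30 (-0.53, adjusted p = 0.00406). The list median was -0.39. Of 13 mitochondrially encoded genes and 2 cytochrome c genes, 0 were matched to a probe set of their own by symbol.

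Genes that act around the complexes are given in the same way, against the same shares of all genes. All 4 nuclear regulators measured fell: ewg, the fly counterpart of nuclear respiratory factor 1 (3467, 3405 and 4046 in WT, 1588, 1556 and 1819 in GOF, log2 change -1.14, adjusted p = 7.75e-06), Mnt (-0.64), Ets97D (-0.60) and ERR (-0.34). TFAM, which packs mitochondrial DNA, rose in GOF (8698, 8652 and 8571 in WT, 14659, 16765 and 14909 in GOF, log2 change 0.84, adjusted p = 1.26e-05) and in LOF (0.42, adjusted p = 0.0178). In the list of mitochondrial DNA maintenance and expression, 5 of 11 rose and 5 fell in GOF, with mTerf3 lowest at -2.11. In LOF mTerf3 fell as well (-2.30, adjusted p = 2.65e-07), and GOF and LOF differed by 0.19 (adjusted p = 0.165). Of 10 quality control and dynamics genes, 2 rose, led by the kinase gene Pink1 (3106, 2707 and 2655 in WT, 7558, 9143 and 10110 in GOF, log2 change 1.66, adjusted p = 6.4e-07), and 5 fell, among them both prohibitin genes (Phb2 -0.84, Phb1 -0.66), the chaperonin gene Hsp60A (-0.75) and the mitofusin gene Marf (-0.72).

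A list of the tricarboxylic acid cycle and enzymes linked to it had 2 of 10 genes higher and 4 lower in GOF. Scsalpha1 (log2 change 1.51) and Ogdh (0.98) rose, and Idh (-0.99) and muc (-0.95) fell most. In LOF, 3 of these 10 rose, against 1.36% of all genes: Idh3a (1.09, adjusted p = 0.0132), Scsalpha1 (0.49, adjusted p = 0.0402) and Idh3b (0.37, adjusted p = 0.0481). The last of them fell in GOF (-0.39, adjusted p = 0.00623). Of 11 genes of carriers, the outer membrane and protein import, 3 rose in GOF, with the import receptor gene Tom20 at 0.77. Another 4 fell, with Tim8 at -0.73 and the channel gene porin at -0.39. In a list of glycolysis and enzymes linked to it, 2 of 9 genes rose in GOF, Ald1 (0.93) and Gpdh1 (0.76), while 4 fell, with Hex-A at -0.85. Ald1 rose in LOF as well (0.85, adjusted p = 0.0266), the only one of the 9 called there. Its difference between GOF and LOF was 0.08 (adjusted p = 0.783). Medians in GOF were -0.09 for the tricarboxylic acid cycle list, -0.11 for the carrier and import list, -0.23 for the glycolysis list, -0.29 for quality control and 0.29 for mitochondrial DNA.

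The mean standardized pattern of the 5 members that fell in GOF was most like that of 5 genes outside the complexes, by Pearson's r over the 9 arrays: Nrx-IV (0.984), Uggt (0.978), Vdup1 (0.976), PNPase (0.976) and CG8306 (0.975). These points share the group differences, and all 5 genes were also called lower in GOF, from CG8306 (-1.12, adjusted p = 8.2e-06) to PNPase (-0.29, adjusted p = 0.0197).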

How the data were processed

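Total RNA of 9 whole-embryo samples was hybridised to 1-colour Affymetrix arrays from 2 µg each, per the labels. The deposited intensities, whole numbers on a linear scale (29 to 1331513, array medians 688 to 709), were made by the authors with RMA, per the submitters' processing notes, whose settings were not stated. In all, 239 of 14010 probe sets exceeded 65535, the 16-bit limit, on an array, so a base other than 2 may lie behind the values. Since they were linear, log2(value + 1) was taken. Of the probe sets, 12443 had 1 annotated gene, and the set with the highest mean stood for a gene. Gene symbols were updated by gene number to the RefSeq table (Release 6 plus ISO1 MT). In R 4.3.3, limma 3.58.1 estimated group means gene by gene from all arrays (6 residual and 5.39 prior degrees of freedom, two-sided, no filter). The median SE over members was 0.135, and 3 arrays a group limit precision. The script was tested on simulated data. Members, gene lists, the naming rule and tests were chosen with earlier results of these data known. The rule printed arrays for up to 4 called rises and falls per complex, the brightest member and paralog pairs, and for lists up to 4 genes each way. Alternatives covered scale, normalization, filter, probe sets, samples, block and moderation. No sequence is shown, since none was used here.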

Additional observations from a re-analysis of the deposited data

How the results depend on the processing

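Of 37 called differences of members (15 in GOF and 2 in LOF against WT, 20 between GOF and LOF), 26 held in all 19 alternatives, 11 of them in GOF against WT and 15 between GOF and LOF, and 0 reversed. The natural log, a pseudocount of 32, the filter on dim genes, the mean of all probe sets and testing every probe set kept all 6 counts within 1.5 times. The natural log only rescales the log2 values, so it could not change a call and is no test of them. The mean of all probe sets could alter the values of only the 2 members with several sets. Against WT, 5 members were lower in GOF. This count was 11 with quantile normalization, 3 with cyclic loess and 9 with the replicate number as a block, and between 3 and 8 when single arrays were left out. Over all genes, the lower count was 2351, 1750 and 2199 with quantile normalization, cyclic loess and the block, against 2180 in the main fit. The single member lower in LOF became 2 with quantile normalization, with only the arrays compared and with the replicate block, and 0 to 2 with arrays left out. The single member higher in LOF became 0 to 1. Between GOF and LOF, the 6 lower members became 10 with quantile normalization and 3 to 8 with arrays left out. Same-numbered arrays correlated at -0.18 to 0.187 in their deviations over all genes, and differently numbered ones at -0.277 to 0.232. With 3 arrays a group, these values cannot tell whether the numbers pair the samples. The cause of these moves was not tested. Dim paralogs limit what could be seen, since no background level was used.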

Other observations

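Probe sets listed for a member and a second gene were tested nowhere, and their signal cannot be assigned to either gene. The set listed for ATPsynG and beat-Vb read 43926, 30876 and 44065 in WT, 66197, 67349 and 58695 in GOF and 40123, 38994 and 43614 in LOF, so that GOF lay above both other groups. The set listed for COX6B and CG18809 read 61594, 49345 and 52121 in WT, 40341, 37075 and 41377 in GOF and 43218, 38662 and 60333 in LOF, with GOF below WT. The set listed for ND-13B and CG33493 read 2065, 1762 and 1842 in WT, 1736, 1747 and 1594 in GOF and 1533, 1311 and 1916 in LOF.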
